A study of Mus musculus with 6 samples.

Results

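To examine fatty acid handling in the colon after loss of intestinal NSD2, a histone H3 lysine 36 methyltransferase, 8 genes of PPAR signalling and fatty acid oxidation were followed. They were the receptor Ppara and its target or pathway genes Cpt1a, Pdk4, Angptl4, Acadm, Acadl, Ehhadh and Plin2. All 8 were among the 24517 genes of the count tables and all 8 passed the filter on low counts. Colon RNA was sequenced in 3 libraries of NSD2fl/fl mice, with the floxed but intact gene, and in 3 libraries of NSD2∆IE mice, in which Villin-Cre removed it from the intestinal epithelium only. Other cells of the colon kept the gene. All mice were on a C57BL/6J background and were fed HFCD, a diet rich in fat and cholesterol, which lasted 16 weeks by the labels and longer by the methods. The methods describe male littermates aged 7 to 8 weeks at the start. The NSD2∆IE libraries did not show a male pattern, as given below.

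PPARα is a nuclear receptor that binds fatty acids. With an RXR partner it activates genes that carry fatty acids into mitochondria and peroxisomes, oxidise them and make ketone bodies, and it is best known for the response of the liver to fasting. In the gut the same programme is active in absorptive epithelium, where dietary fat and bacterial short-chain fatty acids are fuels, and related PPAR family members share many of its targets.

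Libraries held from 38041832 to 38604680 counts, and the upper limit behind a count of 0, which is 3 counts and covers counting error only, was at most 0.0848 CPM (counts scaled for library size and composition). Nsd2 had 1840 to 2455 counts in NSD2fl/fl and 914 to 1139 in NSD2∆IE. Xist had at most 4 counts in NSD2fl/fl and at least 21217 in NSD2∆IE. The summed counts of Uty, Kdm5d, Ddx3y and Eif2s3y on the Y chromosome were at least 5058 in NSD2fl/fl and at most 1 in NSD2∆IE. All 3 NSD2fl/fl libraries thus looked male and all 3 NSD2∆IE libraries looked female, unlike the male mice of the methods. Each contrast of the genotypes below therefore also sets female-like against male-like libraries. The part of sex in these contrasts could not be separated from that of genotype. Hoxb13, a homeobox gene of the distal colon and rectum, also separated the libraries, but across the genotypes. Its level was 365 and 340 CPM in NSD2fl/fl replicates 1 and 3 and 310.01 CPM in NSD2∆IE replicate 1, against 0.706 CPM in NSD2fl/fl replicate 2 and 4.97 and 26.2 CPM in NSD2∆IE replicates 2 and 3. The first principal component, with 51.03% of the variance, had negative scores in the first 3 and positive scores in the last 3. This split was read from the data and the labels give no batch or colon position for it.

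No member was called different between the genotypes. The number with an adjusted p under 0.05 was 0 of 8 in edgeR's quasi-likelihood test with Benjamini-Hochberg adjustment, against 0.0306% of the 16347 genes tested. The 5 genes behind this share were Xist and the 4 Y-linked genes, and Nsd2 itself was not among them (log2 fold change -1.23, adjusted p = 0.302). Likewise, 0 of 8 had an unadjusted p under 0.05, against 11.1% of all genes. DESeq2 also gave 0 of 8 at an adjusted p under 0.05, against 2.79% of all genes. The groups overlapped for all 8, whereas they did not for 18.7% of all genes (11.4% higher and 7.28% lower in NSD2∆IE). Fitted log2 fold changes (NSD2∆IE over NSD2fl/fl) lay between -0.24 for Plin2 and 0.56 for Angptl4, with a median of 0.0014 beside -0.04 over all genes, and 4 were above and 4 below 0.

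**Figure D1:**
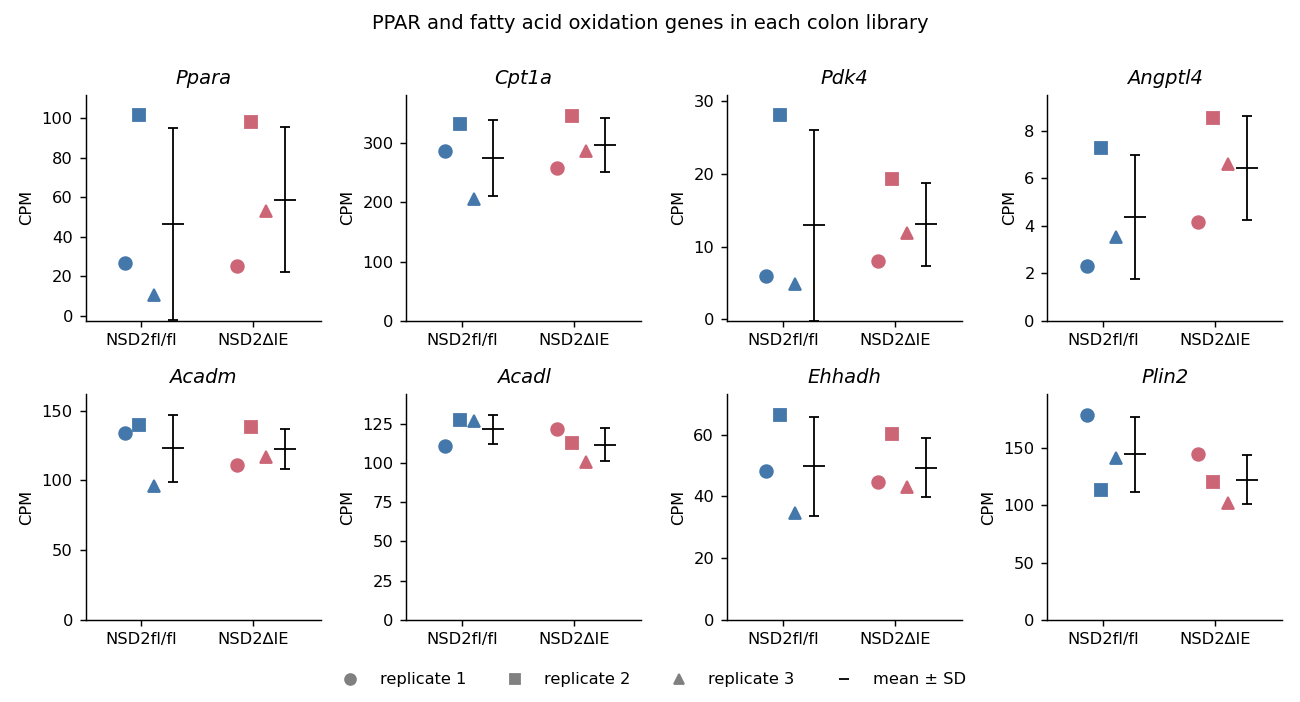
CPM of the 8 genes in each library (points, replicate number by shape, blue NSD2fl/fl and red NSD2∆IE), with the group mean ± SD (bars, n = 3). The groups overlap in every panel, and replicate 2 is the highest point of each group in all panels but those of Acadl and Plin2.

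The level of a transcript per gene length was compared first. In FPKM (reads scaled for gene length and library total), Acadl had a mean of 59.7 ± 2.94 over the 6 libraries, Acadm 59.6 ± 9.12, Cpt1a 56.9 ± 10.8 and Plin2 45.7 ± 9.65 (SD, n = 6). These 4 did not separate beyond their spread, since their ranges overlapped one another. Ehhadh followed with 16.4 ± 3.67 FPKM, and its highest library (20.5 FPKM) lay below the lowest library of Plin2 (35.95 FPKM). Ppara (5.02 ± 3.64), Pdk4 (3.72 ± 2.44) and Angptl4 (2.85 ± 1.32) were the lowest and overlapped one another. The 3 genes of low level were also those of widest spread. The highest library exceeded the lowest 10.1-fold for Ppara, 5.76-fold for Pdk4 and 3.75-fold for Angptl4 on the FPKM scale, and at most 1.91-fold for the other 5.

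**Figure D2:**
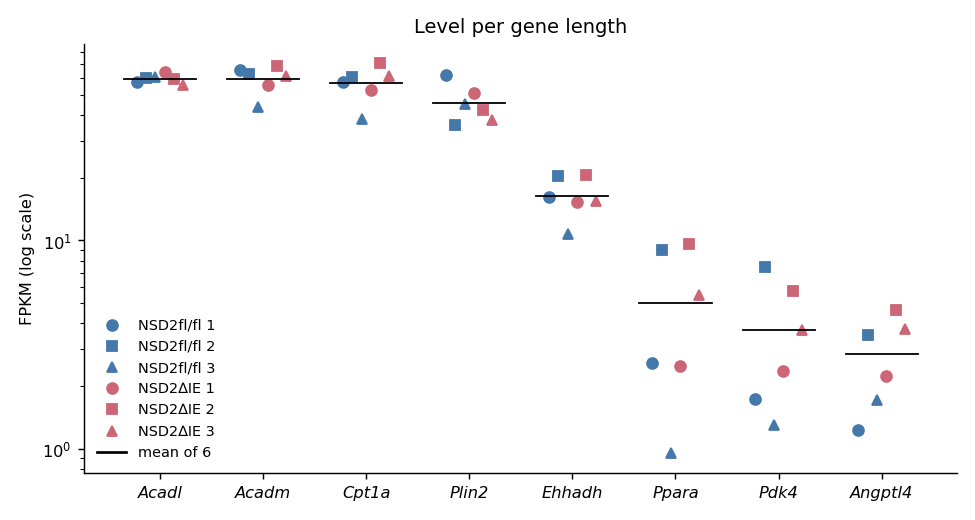
FPKM of the 8 genes on a log axis, ordered by the mean of the 6 libraries (line), with 1 point per library. The 5 genes on the left lie between 10.7 and 70.6 FPKM, and the 3 on the right spread over up to 10.1-fold.

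Ppara, on chromosome 15, encodes the receptor itself. It had 26.6, 101.6 and 10.6 CPM in NSD2fl/fl replicates 1 to 3 and 25.3, 98.02 and 52.9 CPM in NSD2∆IE replicates 1 to 3. The 3 libraries of low Hoxb13 had the 3 highest values, and the highest and lowest libraries were both NSD2fl/fl. Group means were 46.3 ± 48.6 and 58.7 ± 36.7 CPM (SD, n = 3 per group). The log2 fold change was 0.34 (SE 0.831, 95% interval -1.63 to 2.32), with an adjusted p of 0.897, so folds from 0.322 to 4.998 are inside the interval. The span between libraries exceeded that of 98.4% of the 10699 genes with an average log2 CPM of at least 3.

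Pdk4, on chromosome 6, encodes a kinase that switches off pyruvate dehydrogenase and so spares glucose when fatty acids are burned. It had 5.95, 28.003 and 4.8 CPM in NSD2fl/fl and 7.97, 19.2 and 11.9 CPM in NSD2∆IE. As for Ppara, NSD2fl/fl replicate 2 stood far above the other controls and replicate 2 was the highest of the NSD2∆IE libraries. The means of 12.9 ± 13.1 and 13.04 ± 5.71 CPM gave a log2 fold change of 0.01 (SE 0.705, 95% interval -1.66 to 1.69, adjusted p = 0.996).

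Angptl4, on chromosome 17, encodes a secreted inhibitor of lipoprotein lipase. It had few counts, from 89 to 339 per library, which were 2.31, 7.29 and 3.51 CPM in NSD2fl/fl and 4.16, 8.55 and 6.63 CPM in NSD2∆IE. Each NSD2∆IE replicate was above the NSD2fl/fl replicate of the same number, but the groups overlapped, and the labels do not state that the numbers pair the libraries. A log2 fold change of 0.56 was the largest of the 8 (SE 0.467, 95% interval -0.55 to 1.67, adjusted p = 0.695). With the replicate number as a block, the edgeR test gave 0.66 (unadjusted p of 0.0326, adjusted p = 0.333).

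The values of these 3 genes depended on which library was in the fit. Without NSD2fl/fl replicate 2 the log2 fold change was 1.65 for Ppara (unadjusted p of 0.0399), 1.27 for Pdk4 (0.0155) and 1.15 for Angptl4 (0.0196), and all 3 then passed an unadjusted p under 0.05 with a log2 fold change beyond 0.32, with adjusted p-values of 0.358, 0.325 and 0.327 from the same edgeR test. Ppara turned to -0.11 and -0.24 when NSD2fl/fl replicate 3 or NSD2∆IE replicate 2 was left out, and was at 0.06 and 0.72 when replicate 1 of NSD2fl/fl or of NSD2∆IE was left out. Pdk4 turned to -0.33, -0.36 and -0.38 without NSD2fl/fl replicate 1, NSD2fl/fl replicate 3 and NSD2∆IE replicate 2. Angptl4 stayed above 0, with its lowest values of 0.25 and 0.30 without NSD2fl/fl replicate 1 and NSD2∆IE replicate 2. Within the libraries of high Hoxb13, 2 NSD2fl/fl against 1 NSD2∆IE, NSD2∆IE minus NSD2fl/fl in log2 CPM came to 0.59 for Ppara, 0.57 for Pdk4 and 0.54 for Angptl4. Within those of low Hoxb13, 1 against 2, it was -0.50, -0.89 and 0.05. The difference therefore ran in opposite directions in the 2 sets for Ppara and Pdk4, and no test was made within sets that hold 1 library of a genotype. With the split as a covariate in the fit of all 6 libraries, the log2 fold changes were -0.0025, -0.16 and 0.28, and 0 of the 8 members had an unadjusted p under 0.05.

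The promoters of Ppara and Pdk4, which varied together across the libraries, and of Plin2, which ran the other way, are shown as the 250 bases before the transcription start in RefSeq on GRCm38.p6. A PPAR-RXR pair binds a direct repeat with 1 spacer base, which was searched as AGGTCANAGGTCA on both strands with at most 2 mismatches. Of the 8 genes, 7 had a promoter entry. The repeat was found in 1 of them, that of Plin2, and in 3.24% of the 32851 promoters of the table. The Plin2 match had 2 mismatches, the most allowed, both in the same site of the repeat. In the sequences below, capitals mark that match.
Ppara (chr15:85735526-85735775, plus strand): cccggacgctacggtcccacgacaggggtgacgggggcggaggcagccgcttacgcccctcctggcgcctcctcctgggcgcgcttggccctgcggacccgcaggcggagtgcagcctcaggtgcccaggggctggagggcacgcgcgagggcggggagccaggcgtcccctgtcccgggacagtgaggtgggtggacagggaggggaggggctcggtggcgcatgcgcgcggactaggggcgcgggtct
Pdk4 (chr6:5496279-5496528, minus strand): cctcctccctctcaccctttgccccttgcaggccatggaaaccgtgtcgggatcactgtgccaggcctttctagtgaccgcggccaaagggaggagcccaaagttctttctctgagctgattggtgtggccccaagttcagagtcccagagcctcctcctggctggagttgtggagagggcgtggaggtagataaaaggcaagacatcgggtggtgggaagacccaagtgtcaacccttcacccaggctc
Plin2 (chr4:86670060-86670309, minus strand): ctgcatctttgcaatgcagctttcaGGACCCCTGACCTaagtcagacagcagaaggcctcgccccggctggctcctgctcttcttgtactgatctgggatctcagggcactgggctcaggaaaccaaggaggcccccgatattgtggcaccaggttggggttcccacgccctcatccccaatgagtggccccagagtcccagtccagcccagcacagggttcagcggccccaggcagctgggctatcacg
The match in Plin2 lies 225 bases before the start and reads GGACCCCTGACCT on the strand of the gene, which is the repeat on the other strand. The promoters of Ppara and Pdk4 held neither this match nor the single site AGGTCA on either strand, which was present in 3 of the 7 (Cpt1a, Acadm and, inside its repeat, Plin2) and in 14.0% of all promoters. The window is short and elements further away were not searched.

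Cpt1a, on chromosome 19, encodes the carnitine palmitoyltransferase that admits long-chain fatty acids to mitochondria and sets the pace of their oxidation. It had 286.3, 333 and 207 CPM in NSD2fl/fl and 258, 347 and 286.4 CPM in NSD2∆IE. NSD2fl/fl replicate 3 was the lowest library and replicate 2 the highest of each group. Its log2 fold change was 0.11 (SE 0.21, 95% interval -0.39 to 0.61, adjusted p = 0.863), so changes beyond 1.53-fold higher lie outside the interval. The muscle isoform Cpt1b had at most 2 counts in a library and was not tested. Cpt2, the enzyme that completes the shuttle on the inner membrane, averaged 92.9 ± 22.4 CPM in NSD2fl/fl and 94.8 ± 15.1 CPM in NSD2∆IE (SD, n = 3 per group) and a log2 fold change of 0.03 (adjusted p = 0.966).

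Acadm and Acadl encode the medium-chain and long-chain acyl-CoA dehydrogenases, which carry out the first step of mitochondrial β-oxidation. Acadm, on chromosome 3, had 133.9, 140 and 95.7 CPM in NSD2fl/fl and 111.5, 138.6 and 116.8 CPM in NSD2∆IE. Acadl, on chromosome 1, had 111.02, 127.4 and 126.5 CPM in NSD2fl/fl and 122, 112.8 and 100.6 CPM in NSD2∆IE. Acadm and Acadl had the smallest spans of the 8, and neither followed the Hoxb13 split. Their log2 fold changes were -0.01 for Acadm (SE 0.175, 95% interval -0.43 to 0.40, adjusted p = 0.986) and -0.12 for Acadl (SE 0.119, 95% interval -0.40 to 0.16, adjusted p = 0.735). The sign for Acadm turned in 10 of 16 alternatives and that for Acadl in 3, all within 0.13 of 0 on the higher side. Both intervals exclude a change of 1.5-fold in either direction. Of the other mitochondrial enzymes, Acadvl, the very long-chain dehydrogenase, had a log2 fold change of 0.15 (adjusted p = 0.754) and Hadha, a subunit of the trifunctional protein, of 0.05 (adjusted p = 0.919).

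Ehhadh, on chromosome 16, encodes the bifunctional enzyme of peroxisomal β-oxidation. It had 48.1, 66.5 and 34.5 CPM in NSD2fl/fl and 44.7, 60.2 and 43.02 CPM in NSD2∆IE. Replicate 2 was the highest library of each group, as for Cpt1a, and NSD2fl/fl replicate 3 the lowest of all. Its log2 fold change was -0.01 (SE 0.255, 95% interval -0.62 to 0.59, adjusted p = 0.99), with the sign turned in 9 of 16 alternatives.

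Plin2, on chromosome 4, encodes the coat protein found on lipid droplets of most tissues. It had 179, 114 and 141 CPM in NSD2fl/fl and 145, 120.6 and 102.1 CPM in NSD2∆IE. Here the order was turned round, since the 3 libraries of low Hoxb13 had the 3 lowest values. The group means were 144.8 ± 32.9 and 122.6 ± 21.5 CPM (SD, n = 3 per group). The log2 fold change was -0.24 (SE 0.205, 95% interval -0.73 to 0.25, adjusted p = 0.703) and stayed below 0 in all 16 alternatives, between -0.39 and -0.06. Plin3, a relative on nascent droplets, had a log2 fold change of -0.10 (adjusted p = 0.811).

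**Figure D3:**
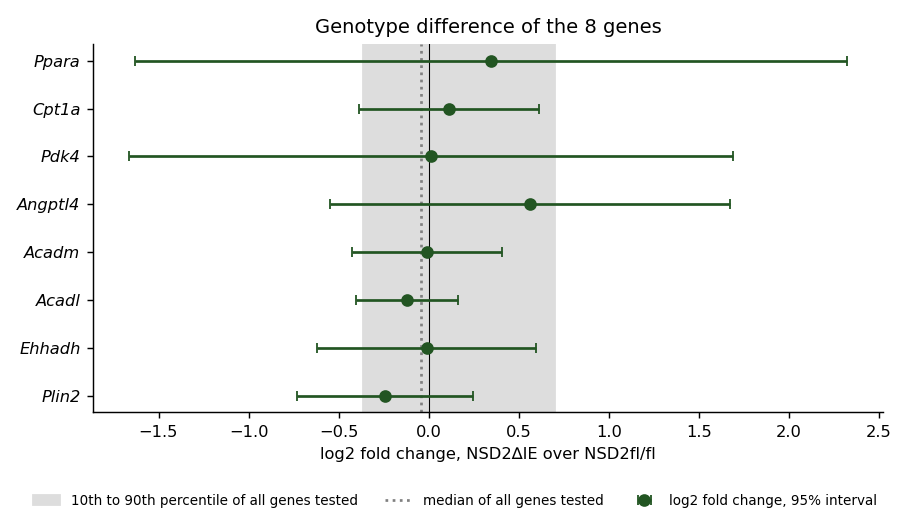
Fitted log2 fold change of each gene (point) with its 95% interval (bar, n = 3 per group), beside the median (-0.04, dotted) and the 10th to 90th percentiles (-0.37 to 0.70, grey) over the 16347 genes tested. All intervals include 0, and those of Ppara, Pdk4 and Angptl4 are the widest.

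The order of the libraries was then set beside that of all genes. Of the 8 members, 4 (Ppara, Cpt1a, Pdk4 and Angptl4) had their 3 highest values in the 3 libraries of low Hoxb13, against 9.55% of all genes tested, and 1 (Plin2) had its 3 lowest there, against 12.8%. For Cpt1a the separation rested on 286.4 against 286.3 CPM. The other 3 overlapped. In the wider list of 83 pathway genes that includes the members, 76 were tested, of which 31 (40.8%) were highest and 8 (10.5%) lowest in those 3 libraries. The 31 included 8 of the 15 mitochondrial β-oxidation genes. The split was taken from the same libraries, so these shares are a description without a test. In tissue RNA, fewer cells of a type and less RNA per cell cannot be told apart.

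Some other PPAR targets swung further than any of the 8. Acaa1b, a peroxisomal thiolase, and Vnn1, a pantetheinase, were named after their values were seen. Acaa1b had 5, 761 and 3 counts in NSD2fl/fl and 7, 979 and 291 counts in NSD2∆IE. Vnn1 had 12, 755 and 5 counts in NSD2fl/fl and 46, 1081 and 370 counts in NSD2∆IE. Both were thus near the floor in the libraries of high Hoxb13, in either genotype, apart from Vnn1 in NSD2∆IE replicate 1. Reads of Acaa1b and its close copy Acaa1a may be divided in a way the sources do not state. The log2 fold changes were 0.56 for Acaa1b (adjusted p = 0.931) and 0.78 for Vnn1 (adjusted p = 0.885).

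**Figure D4:**
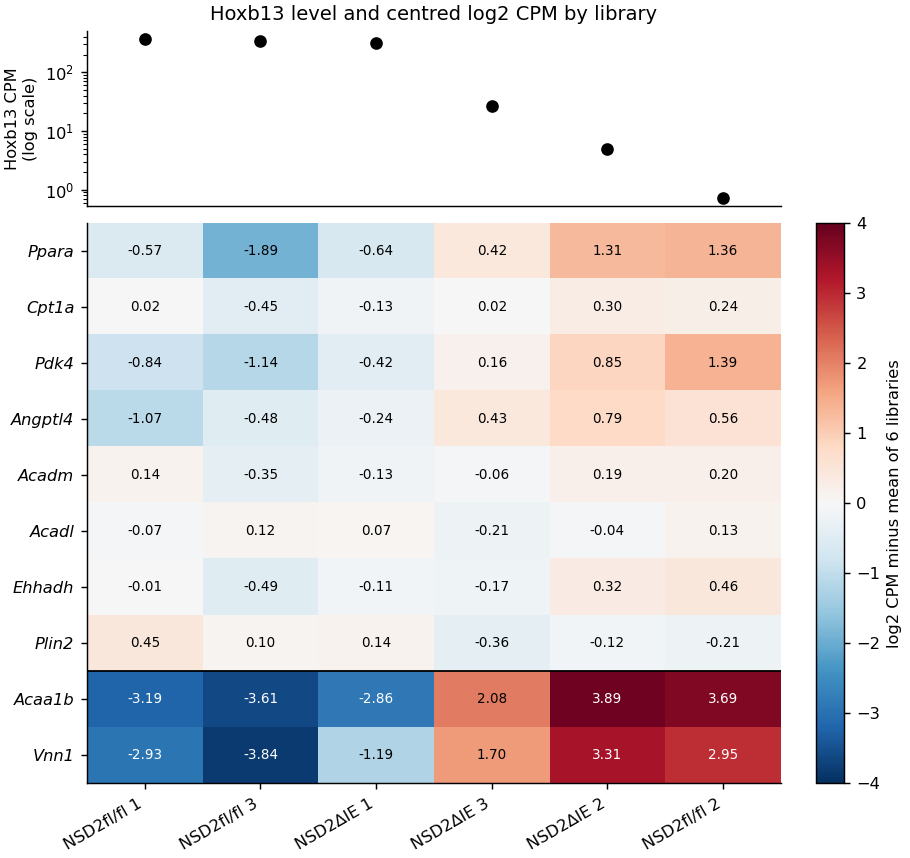
Hoxb13 in CPM on a log axis (top) and log2 CPM minus the mean of the 6 libraries (colour and printed value, bottom) for the 8 genes and, under the line, Acaa1b and Vnn1, with libraries ordered by falling Hoxb13. Ppara runs from -1.89 in NSD2fl/fl replicate 3 to 1.36 in NSD2fl/fl replicate 2, while Acadl stays between -0.21 and 0.13.

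Markers of other tissue components were examined beside these values. The 6 colonocyte markers together were at 2977, 3510 and 4893 CPM in the libraries of high Hoxb13 and at 13058, 11192 and 6762 CPM in those of low Hoxb13. Car1 alone made up 7837, 8057 and 3799 CPM of the latter sums and 188 to 723 CPM of the former. Krt20 and Guca2a were also higher in the libraries of low Hoxb13, Slc26a3 and Aqp8 were lower, and Car4 overlapped. The list thus did not move as a whole, and its sum largely followed Car1. Macrophage markers summed to 422 to 665 CPM in NSD2fl/fl and 490 to 649 CPM in NSD2∆IE. The defining brown adipocyte markers Ucp1 and Elovl3 were at or near 0, with at most 0.0757 CPM. Of the skeletal muscle list, Myh1, Myh2 and Tnnt3 had at most 0.505 CPM, Ckm was at 4.15 to 6.91 CPM in NSD2fl/fl and 11.5 to 35.5 CPM in NSD2∆IE (log2 fold change 2.19, adjusted p = 0.302), and Acta1 at 1.4 to 9.44 and 4.26 to 5.42 CPM (log2 fold change -0.33, adjusted p = 0.861). The summed list was at 8.93 to 15.1 and 17.6 to 41.3 CPM, and Ckm was the 1 of its 3 tested genes with an unadjusted p under 0.05. Both tested genes of the distal colon list were below 0, and neither they nor a colonocyte (3 of 6 above 0), macrophage (2 of 5) or epithelial marker (0 of 5) had an unadjusted p under 0.05. The part of these components in the spread of the 8 genes was not tested.

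The rest of the pathway was compared between the genotypes by role. Of the 76 genes tested, 0 had an adjusted p under 0.05 in edgeR, where 8 (10.5%) had an unadjusted p under 0.05, beside 11.1% of all genes. In DESeq2, 3 (3.95%) had an adjusted p under 0.05 (Rxrg, Plin4 and G0s2), beside 2.79% of all genes. The groups did not overlap for 9 higher (11.8%) and 2 lower genes (2.63%), beside 11.4% and 7.28% of all genes. Past an unadjusted p under 0.05 with a log2 fold change beyond 0.32, 7 (9.21%) were higher and 1 (1.32%) lower, against 8.05% and 2.21% of all genes. The median log2 fold change was 0.14, beside -0.04 over all genes, and 55 (72.4%) were above 0, beside 43.7% of all genes. With the principal component split as a covariate the pathway median was 0.074. It ran from 0.042 (without NSD2fl/fl replicate 3) to 0.31 (without NSD2fl/fl replicate 2) when 1 library was left out. None of the 6 tested genes of the carnitine shuttle, 15 of mitochondrial β-oxidation, 4 of ketogenesis and 6 pyruvate dehydrogenase kinases and phosphatases was past the above threshold of unadjusted p and fold change in either direction. Among the kinases, Pdk1, Pdk2 and Pdk3 had log2 fold changes of -0.24, 0.08 and 0.24.

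Among the receptors, Ppard, a widely expressed PPAR form, had 203, 278 and 205 CPM in NSD2fl/fl and 154, 169 and 147 CPM in NSD2∆IE. The groups did not overlap, with NSD2∆IE lower. This gave a log2 fold change of -0.55 (SE 0.159, 95% interval -0.92 to -0.17), with an unadjusted p of 0.0112 that stayed under 0.05 in all 16 alternatives and an adjusted p of 0.317. It was -0.41 within the libraries of high Hoxb13 and -0.82 within those of low Hoxb13. Pparg, the form of adipocytes and also of colonocytes, had 44.9, 87.3 and 45.5 CPM in NSD2fl/fl and 53.4, 108.3 and 75.6 CPM in NSD2∆IE, and thus followed the Hoxb13 split (log2 fold change 0.42, adjusted p = 0.696). Rxrg, a minor RXR partner, had 10 to 13 counts in NSD2fl/fl and 34 to 61 in NSD2∆IE (log2 fold change 1.86, SE 0.374, adjusted p = 0.302, and 0.0174 in DESeq2, with 0.99 as the highest of the 16 alternatives).

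The other 6 genes past the threshold were higher in NSD2∆IE. Plin4, a droplet coat protein of adipocytes and muscle, had 10.5, 4.04 and 7.67 CPM in NSD2fl/fl and 15.2, 20.5 and 33.3 CPM in NSD2∆IE (log2 fold change 1.64, SE 0.418, adjusted p = 0.303). G0s2, an inhibitor of the lipase ATGL, had 3.12, 3.19 and 3.51 CPM against 4.92, 7.9 and 9.98 CPM (log2 fold change 1.21, SE 0.284, adjusted p = 0.302). Abcd2, a peroxisomal transporter, had 1.3, 1.61 and 1.24 CPM against 2.3, 2.37 and 3.45 CPM (log2 fold change 0.97, adjusted p = 0.321). In Plin4, G0s2 and Abcd2 the highest library was NSD2∆IE replicate 3. Creb3l3, a membrane-bound transcription factor that acts with PPARα, had 3.06, 9.04 and 3.48 against 9.31, 14.03 and 9.5 CPM (log2 fold change 1.08, adjusted p = 0.441). Cd36, a fatty acid receptor, and Fabp3, the heart-type fatty acid binding protein, had log2 fold changes of 0.48 and 1.01 (adjusted p-values of 0.446 and 0.414). The unadjusted p was above 0.05 for Cd36 and Fabp3 when NSD2fl/fl replicate 2 or 3 or NSD2∆IE replicate 2 or 3 was left out, for Creb3l3 when any library but NSD2fl/fl replicate 2 was, and for Abcd2 when NSD2∆IE replicate 3 was. For Cd36 and Fabp3 the edgeR test also gave 0.0596 and 0.0806 with the principal component split as a covariate. With the replicate block it gave 0.0616 and 0.0649, and without a filter 0.0510 for Cd36.

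Adipocyte markers were set beside these genes, which did not share a single library order. Creb3l3 was highest in NSD2∆IE replicate 2 (14.03 CPM). Cd36 (16.3 against 15.8 CPM) and Fabp3 (1.48 against 1.44 CPM) were higher in NSD2fl/fl replicate 1 than in NSD2∆IE replicate 1. The 6 of 7 adipocyte markers that were tested all had fitted changes above 0, 5 with an unadjusted p under 0.05 and 0 with an adjusted p under 0.05. The summed level of all 7 was 13.6 to 28.5 CPM in NSD2fl/fl and 45.3 to 102.1 CPM in NSD2∆IE, highest in NSD2∆IE replicate 3. Fabp4 alone made up 11.4 to 14.7 and 23.0 to 37.8 CPM of it. Lep, which was not tested, overlapped between the groups (means of 0.130 and 0.146 CPM). Smooth muscle markers were at 1338 to 3884 and 4832 to 10394 CPM (6 of 6 above 0, 5 with an unadjusted p under 0.05) and enteric neuron markers at 35.5 to 61.8 and 75.96 to 101.1 CPM (5 of 5, all under 0.05), while the sum of the epithelial markers was at 8585 to 13846 and 8014 to 9554 CPM. All 5 epithelial markers were below 0 (median log2 fold change -0.32), and for Epcam (1431 to 1874 against 1233 to 1388 CPM) and Cdh1 (1128 to 1241 against 776 to 1075 CPM) the groups did not overlap. Plin1, the adipocyte droplet coat, had 0 to 13 counts in NSD2fl/fl and 14 to 91 in NSD2∆IE (log2 fold change 2.43, SE 1.1, adjusted p = 0.478). In CPM its groups overlapped, with 0.365 in NSD2fl/fl replicate 3 and 0.353 in NSD2∆IE replicate 1, and without NSD2∆IE replicate 3 the log2 fold change was 1.27. The part of the adipocyte signal in the pathway genes was not tested.

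**Figure D5:**
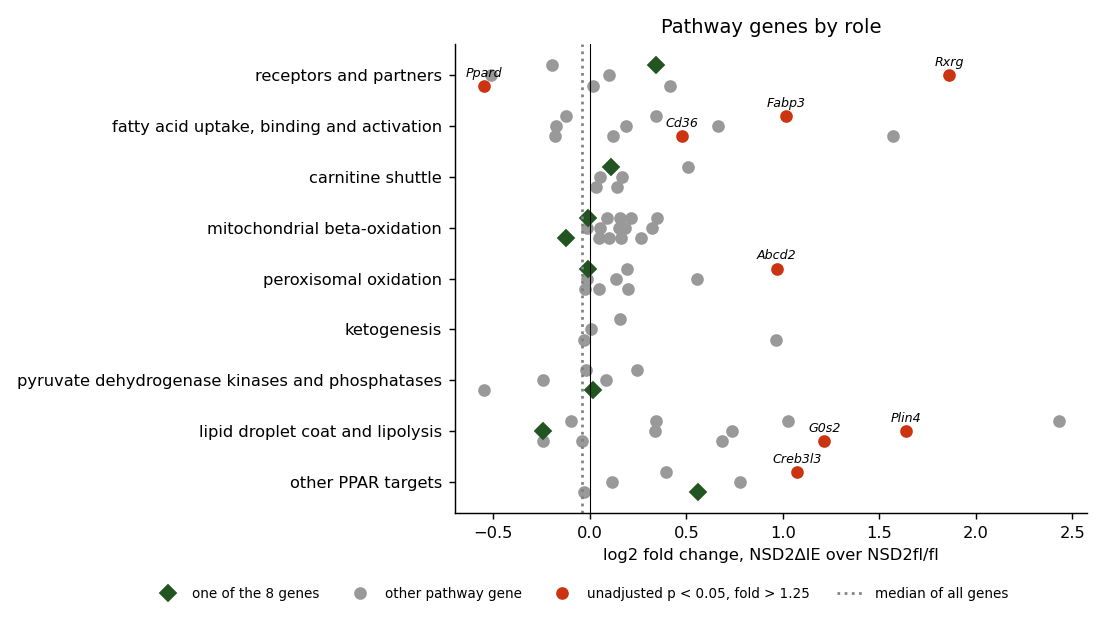
Fitted log2 fold change (NSD2∆IE over NSD2fl/fl) of the 76 pathway genes tested, by role. Diamonds are the 8 genes, red points passed an unadjusted p under 0.05 with a log2 fold change beyond 0.32, and the dotted line is the median of all genes (-0.04). The 7 higher red points and the 1 lower point lie among receptors, uptake, peroxisome, droplet and other target genes.

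Genes of most similar pattern were found for each member by the root mean square difference between profiles of log2 CPM over the 6 libraries, each centred on its own mean, among 10699 genes. The nearest to Ppara were Btnl1 and Bmp3, at 0.172 and 0.231 log2 units. For Pdk4 they were Prom1 and Tph1 (0.124 and 0.131), and for Angptl4 Guca2b and Lrfn3 (0.0851 and 0.154). These distances are small beside the members' own deviation from a flat profile, which was 1.16, 0.899 and 0.654. Cpt1a was nearest to Tmem86a and Sh3gl2, Ehhadh to Dusp16 and Hsd17b11, Plin2 to Mapkapk3 and Ahr, Acadm to Zkscan1 and Mospd1, and Acadl to Nfkbia and Atp6v1e1, at 0.0314 to 0.0678 log2 units. The own deviations of these members from a flat profile were smaller too, from 0.120 for Acadl to 0.313 for Ehhadh. Among the members themselves, Cpt1a and Acadm were the closest pair (0.0862) and Ppara and Plin2 the furthest apart (1.34). The distance is not scaled for spread, so genes of small spread come out close to one another.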

How the data were processed

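RNA was extracted with TRIzol from colon of NSD2fl/fl and NSD2∆IE mice, with 3 libraries each. The authors deposited raw read counts per gene symbol and FPKM values for each library. The submitters' processing notes name fastp, HISAT2, HTSeq, R 3.2.0 and the build mm10, while the annotation and the strand setting are not given in the sources used here. The gene length implied by the deposited counts and FPKM was whole to within 0.0638 bases for 17863 genes. Counts were tested in R 4.3.3 with edgeR 4.0.16. Library pairs differed by a chi-square over degrees of freedom of at least 35.5, and all libraries were kept. The labels name replicates, not animals, so p-values measure the spread between these libraries.

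After filterByExpr, 16347 of 24517 genes were left. Composition was scaled with TMM, and edgeR's two-sided quasi-likelihood test was used with Benjamini-Hochberg adjustment over all genes. SE is the log2 fold change over the square root of F. A second threshold, unadjusted p under 0.05 with a log2 fold change beyond 0.32, followed the study. Alternatives used DESeq2 1.42.0, limma 3.58.1 (voom, and log2 of FPKM plus 1 or 0.1), other factors, no filter, a replicate block, the principal component split and leaving out each library. The 8 genes, the pathway list and the marker lists were chosen with earlier results of these data known. Named genes are the members, pathway genes past the second threshold, close relatives of members and the 2 genes nearest to each member in profile. Some pathway genes enter the counts but are not reported here by name. Scripts were tested on counts simulated with 3 libraries a group. At an adjusted p under 0.05 the edgeR test recovered 73 of 100 changes of 4-fold and 14 of 99 of 2-fold, with 4 false calls. Most 2-fold changes were thus missed. Sequences came from a RefSeq promoter table of GRCm38.p6.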

Additional observations from a re-analysis of the deposited data

How the results depend on the processing

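The count of members with an adjusted p under 0.05 was 0 in all 16 alternative fits, and that of members lower past the second threshold was 0 as well. Members higher past it numbered 1 with the replicate block (Angptl4) and 0 to 3 when 1 library was left out. Deviations of same-numbered libraries correlated at 0.501, 0.643 and -0.166, positive for replicates 1 and 2 and negative for replicate 3. The labels state no pairing, so whether the numbers pair the libraries was not settled. For the pathway list, higher genes numbered 12 with library totals alone, 12 with limma-voom, 13 and 16 on FPKM with a pseudocount of 1 and 0.1, 12 with the replicate block, and 3 (without NSD2∆IE replicate 3) to 28 (without NSD2fl/fl replicate 2) when 1 library was left out. Lower ones numbered 0 at a fold over 1.5, and DESeq2 gave 3 at an adjusted p under 0.05. Over all genes, DESeq2 gave 455 in place of 5, and leaving out libraries 3 to 5. Higher genes ranged from 675 to 1720 and lower genes from 146 to 747 when 1 library was left out. Lower genes were 200 with upper-quartile factors, 142 with library totals, 594 with limma-voom, 607 without a filter, 108 and 138 with FPKM plus 1 and 0.1, 602 with the block, 164 at a fold over 1.5 and 543 when the split by principal component was a covariate. The causes were not tested. Library totals alone moved the median of all genes by 0.127.

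Log2 fold changes of several genes turned sign, among them Vnn1, Acaa1b and Ppara, at 0.78, 0.56 and 0.34 in the reported fit. With the principal component split they were -0.0025 for Ppara, -0.0018 for Cpt1a, -0.16 for Pdk4, -0.079 for Cpt2, -0.016 for Hadha and -0.23 for Acaa1b. Without a filter, Pdk4 was at -0.019 and Cpt2 at -0.0014. With upper-quartile factors, Acadm and Ehhadh were at 0.058 and 0.059, and with limma-voom at 0.049 and 0.067. With library totals alone, Acadm, Acadl, Ehhadh and Plin3 were at 0.11, 0.0061, 0.12 and 0.026, on FPKM with a pseudocount of 1 at 0.13, 0.0038, 0.14 and 0.0397, and with 0.1 at 0.13, 0.0039, 0.15 and 0.041. With the replicate block, Acadm and Ehhadh were at 0.0024 and 0.022. When 1 library was left out, the ranges were -0.24 to 1.65 for Ppara, -0.054 to 0.27 for Cpt1a, -0.38 to 1.27 for Pdk4, -0.16 to 0.087 for Acadm, -0.21 to 0.25 for Ehhadh, -0.11 to 0.24 for Cpt2, -0.039 to 0.18 for Hadha, -0.19 to 0.44 for Pdk2, -1.01 to 6.58 for Acaa1b and -0.53 to 5.75 for Vnn1. Angptl4 and Plin2 kept their sign in all 16 alternatives. With 3 libraries a group, the intervals of Ppara and Pdk4 run from -1.63 to 2.32 and from -1.66 to 1.69.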

Other observations

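Genes of the pathway that were lowest in the 3 libraries of low Hoxb13, as Plin2 was, included Ppargc1b, Acsl1, Acat1, Pdk1, Pdp1 and Pdp2. Such genes were 8 of the 76 tested (10.5%), beside 12.8% of all genes, so they were no more common in the pathway than elsewhere. Pdp1 and Pdp2 encode the phosphatases that switch pyruvate dehydrogenase back on, the step that Pdk4 opposes. Pdk1, another of the kinases, nevertheless ran with these phosphatases and against Pdk4. It had 57.8, 50.4 and 50.6 CPM in the libraries of low Hoxb13 and 65.1 to 81.6 CPM in those of high Hoxb13. The other kinases, Pdk2 and Pdk3, overlapped between these sets of libraries. Pdp2 had 48.6, 13.6 and 39.5 CPM in NSD2fl/fl and 36.9, 13.7 and 18.8 CPM in NSD2∆IE, so it was low in the libraries in which Pdk4 was high. Cidec, a droplet fusion protein with 26, 658 and 90 counts in NSD2fl/fl and 129, 731 and 603 in NSD2∆IE, ran with Pdk4 and against the droplet coat gene Plin2. These genes were named after their values were seen and no test was made of the order.

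Several PPARα targets known from liver were hardly detected. Cyp4a10, a fatty acid hydroxylase, had at most 2 counts in a library and its relative Cyp4a14 at most 1, and both fell below the filter on low counts.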
